A study of Homo sapiens with 16 samples.

Results

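RNA bound by poly(A)-binding protein (PABP) was compared with total RNA in U251 cells, a human glioblastoma line, that had received a miR-137 mimic. The members were picked by their labels, with earlier results of these data known. They are the 2 RIPSeq and the 2 RNASeq libraries of U251 cells with miR-137, 4 of the 16 samples of the series. The remaining libraries came from U251 cells with a control mimic and from U343 cells, another glioblastoma line, with either mimic. Each mimic was transfected at 25 nM and RNA was taken after 48 h. All 4 libraries carried the same mimic in the same line and differed in the assay.

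For RIPSeq, a polysomal lysate was incubated with a mix of PABP antibodies on beads and the bound RNA was extracted with phenol and chloroform. For RNASeq, RNA was extracted from whole cells with Trizol. PABP binding, the lysis buffer and the extraction therefore cannot be told apart in this comparison. Ribosomal RNA was depleted from both kinds of RNA and cDNA was primed with random hexamers, so an RNA without a poly(A) tail could also be counted. The labels do not say whether replicates were separate cultures, so p-values measure the spread between these libraries, which may be technical.

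PABP coats the poly(A) tail of most mRNAs and contacts translation factors at the 5′ end. MicroRNAs guide Argonaute proteins to mRNAs, and GW182 proteins then contact PABP and recruit deadenylases that shorten the tail. Some abundant RNAs have no poly(A) tail: the mRNAs of replication-dependent histones end in a stem-loop, and small nucleolar RNAs and the RNAs of RNase P, RNase MRP and telomerase are trimmed to their final ends. The mRNAs of ribosomal proteins have poly(A) tails and begin with a terminal oligopyrimidine (TOP) tract, which ties their translation to growth signals. The mature microRNA is shown because its mimic was in all 4 libraries. It is encoded on the minus strand at chr1:98046091-98046113 (RefSeq, GRCh38.p14), and the capitals mark the seed, bases 2 to 8, which pairs with targets. The sequence of the mimic itself was not given in the sources used here.
hsa-miR-137-3p: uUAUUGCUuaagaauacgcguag

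The total RNA libraries held 10260834 and 10156675 counted reads, and the PABP-bound libraries 25286819 and 26705825. The PABP-bound replicates lay closest among the U251 pairs, with a median absolute log2 ratio of 0.06 over genes at 1 or more counts per 1000000 reads (CPM), against 0.18 for the total RNA pair and 0.65 for the PABP-bound pair with control mimic. Even so, that closest pair differed by more than counting noise, since chi-square averaged 2.46 over genes where counting alone gives about 1. VIM, CD44, TNC, CAV1 and NES, genes that glioblastoma lines express, were all counted, and 9 of 10 listed glioma markers could be tested. The list also holds SOX2, EGFR, GFAP, S100B and ANXA2, whose single values are not reported here. The blood and liver genes PTPRC, CD3E, HBB and ALB had at most 8 reads in any of the 4 libraries. Some other markers on the lists were read. CD68, a myeloid gene, had 963 and 893 reads in total RNA and 2332 and 2761 in PABP-bound RNA. The neuronal genes SYT1 and SNAP25 had 320 and 268 against 472 and 495, and 60 and 43 against 216 and 221.

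Of 20314 genes listed, 13655 had enough reads to be tested. In PABP-bound RNA, 4427 were higher (32.4% of those tested) and 4569 were lower (33.5%) at an adjusted p under 0.05 in edgeR's quasi-likelihood test, and 4659 passed in neither direction. Changes of over 2-fold were called for 1396 higher genes (10.2%) and 1861 lower genes (13.6%). Each class is to be read against these shares, since most tested genes were called. The split depended on scaling. With library totals in place of TMM factors the median over all genes moved from -0.02 to -0.22 on the log2 scale, and the calls became 3244 higher and 5774 lower. When all 8 U251 libraries shared 1 estimate of spread, which includes the dispersed PABP-bound control pair, the calls fell to 1739 higher and 1791 lower.

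**Figure D1:**
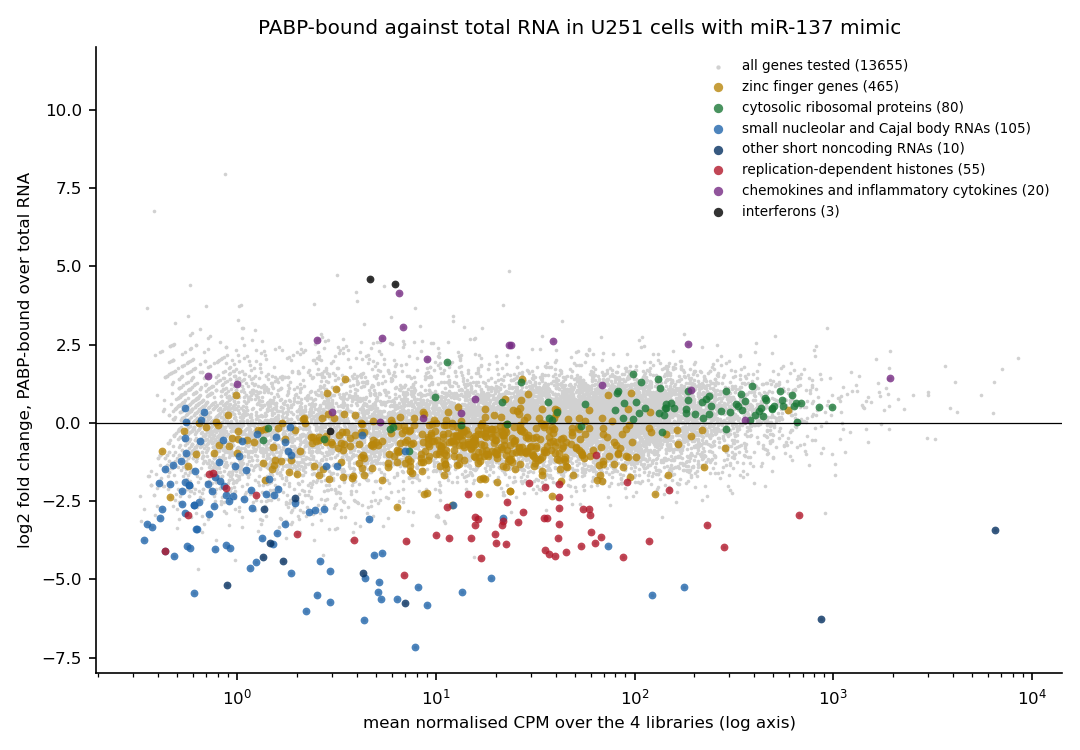
Log2 fold change (PABP-bound over total RNA) of each of 13655 genes against its mean normalised CPM (log axis) over the 4 libraries, with 7 gene lists in colour. Histones and short noncoding RNAs lie far below 0, ribosomal protein genes mostly above it, and the interferons IL29 and IFNB1 above 4. The 2 grey points above 6 are CXCR7 and ZCCHC12, which had no read in total RNA, so their fitted values are no measure of size.

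RNAs that lack a poly(A) tail were the most depleted class. All 10 tested members of a list of other short noncoding RNAs were lower in PABP-bound RNA, with a median log2 fold change of -4.36. RPPH1, the RNA subunit of RNase P, had 22308 and 15047 reads in total RNA and 555 and 515 in the deeper PABP-bound libraries. Both PABP-bound values lay far below both total values, and the difference was -6.27 ± 0.22 (SE, edgeR adjusted p = 9.29e-07). RMRP, the RNA of RNase MRP, took 131302 and 129830 reads of total RNA and 28580 and 24783 of PABP-bound RNA, a change of -3.44 ± 0.12. It thus remained well represented in the PABP-bound libraries at 1205 and 1002 CPM, beside 12100.0 and 11784 CPM in total RNA. TERC, the telomerase template RNA, fell from 173 and 128 reads to 7 and 5 (-5.76 ± 0.30). The list was completed by the minor spliceosome RNAs RNU11, RNU12, RNU4ATAC and RNU6ATAC, between -4.81 and -3.83, and by 3 vault RNAs, between -5.17 and -2.40.

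Small nucleolar RNAs and Cajal body RNAs, which guide the modification of ribosomal and spliceosomal RNA, followed the same direction. Of 347 listed, 105 could be tested. None was higher and 90 were lower, 88 of them by more than 2-fold, with a median of -2.63. Box H/ACA RNAs were lower in 54 of 57 cases (median -2.71), box C/D RNAs in 23 of 34 (median -2.27) and Cajal body RNAs in 13 of 14 (median -3.49). SNORD17 had 3844 and 3700 reads in total RNA and 221 and 218 in PABP-bound RNA. The groups were widely separated, at -5.25 ± 0.11 (edgeR adjusted p = 1.39e-07). SCARNA10 fell from 2830 and 2413 reads to 137 and 120 (-5.50 ± 0.14). SNORA22 had 190 and 152 reads against 1 and 4, which gives a ratio of total to PABP-bound CPM of 151.5 with an exact 95% counting interval of 64.3 to 469.7. Such intervals cover counting error only, since reads were not tagged by molecule.

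Most of these small RNAs lie inside another gene, and the library kit does not mark strand, so reads from an unspliced host cannot be told from the small RNA. Of the 105 tested, 92 lie within another listed gene and 80 of those were lower, against 10 of the 13 outside any gene. Most of the hosts given here were not lower. Host counts do not separate unspliced from spliced RNA, so they cannot settle which RNA the reads came from. SNORA52 was at -5.80 ± 0.28 while its host RPLP2, a ribosomal stalk protein gene, was at 0.70 ± 0.09, from 2787 and 3185 reads to 10198 and 11257. SNORD15A and SNORD15B were at -5.49 and -5.61 and their host RPS3 at 0.27 ± 0.08. SNORD17 lies in SNX5, a sorting nexin gene at 0.42 ± 0.09, and SNORA74B (-5.41 ± 0.62) in ATP6V0E1, a proton pump subunit gene at 1.24 ± 0.09. IARS, the host of SNORA84, did not pass the test at -0.03 ± 0.09. NCAPD2, a condensin subunit gene and the host of SCARNA10, was also lower, at -0.39 ± 0.10. The host genes named here were chosen after the values of their small RNAs were seen.

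Histone genes were divided between the replication-dependent and the replacement kind. All 55 tested replication-dependent histone genes of 65 listed were lower in PABP-bound RNA, each by more than 2-fold, with a median of -3.22 and a range from -4.85 to -1.04. As a group they held 5510 and 4978 CPM of total RNA and 736 and 564 CPM of PABP-bound RNA. The median was -2.38 for 5 linker H1 genes, -3.23 for 13 H2A genes, -3.08 for 18 H2B genes, -3.69 for 11 H3 genes and -3.35 for 8 H4 genes. HIST1H1E had 13544 and 12483 reads in total RNA and 4193 and 3287 in PABP-bound RNA. Its PABP-bound values stayed far below total RNA, at -2.94 ± 0.14 (edgeR adjusted p = 2.36e-06). HIST1H3C fell from 5908 and 5619 reads to 956 and 669 (-3.97 ± 0.18), and HIST3H2BB, the member with the largest change, from 142 and 149 to 11 and 11. HIST1H2BK was the least depleted member, with 84.5 and 88.1 CPM against 43.7 and 40.1 (-1.04 ± 0.09). Histone genes of a family are near-identical in sequence, so the division of reads among them is uncertain. Single members may therefore not be separate observations, while the summed CPM given above does not depend on that division.

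Replacement histone genes, whose mRNAs are polyadenylated and made throughout the cell cycle, did not share that pattern. Of 10 tested, 4 were higher (40%), 2 were lower (20%) and 4 passed in neither direction, beside 32.4% higher and 33.5% lower of all tested genes. H1FX, a linker histone variant, had 613 and 807 reads in total RNA and 2894 and 2985 in PABP-bound RNA, and rose by 0.90 ± 0.12. H2AFZ, which encodes H2A.Z, rose by 0.51 ± 0.10. H1F0, another linker variant, was lower at -1.49 ± 0.08, with 2362 and 2437 reads against 1831 and 1947. H3F3B, which encodes the variant H3.3, was at -0.23 ± 0.10 and did not pass (edgeR adjusted p = 0.0731). The list median of 0.10 turned to -0.10 with library totals only.

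**Figure D2:**
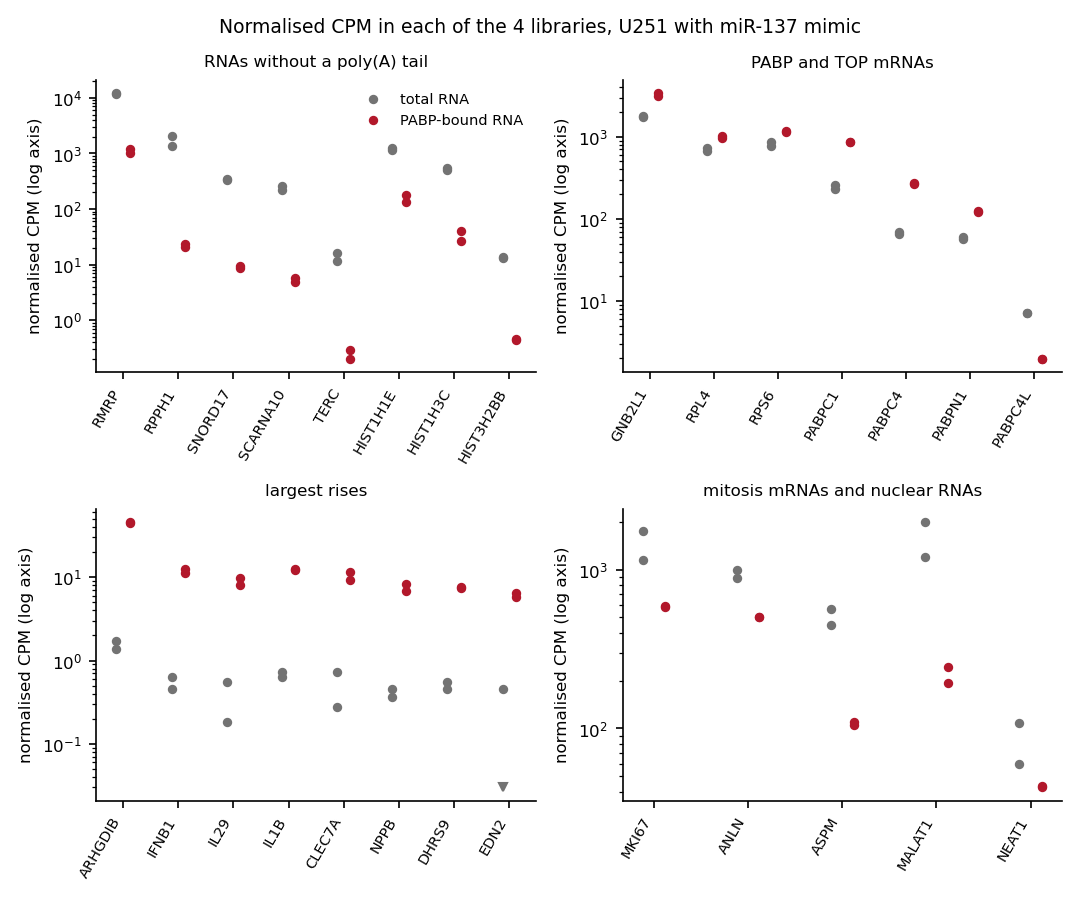
Normalised CPM (log axis) of named genes in each library, with grey points for the 2 total RNA libraries and red points for the 2 PABP-bound libraries. A triangle marks EDN2 in the total RNA library where it had no read and is drawn at the lower edge. For every gene shown, both red points lie on the same side of both grey points.

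Long noncoding RNAs of a list drawn up for nuclear RNAs were mostly lower, though where each lies in these cells was not tested. Of 11 long noncoding RNAs known for a nuclear role or chosen as controls of that kind, 7 were lower, 2 were higher and the median was -0.84. MALAT1, a nuclear speckle RNA whose 3′ end is a triple helix in place of a poly(A) tail, had 21644 and 13191 reads in total RNA and 5746 and 4769 in PABP-bound RNA. The total RNA replicates differed widely, yet both exceeded the PABP-bound ones in CPM, at 1995 and 1197 against 242 and 193 (-2.87 ± 0.23, edgeR adjusted p = 1.35e-05). KCNQ1OT1, an imprinted antisense RNA, was at -2.33 ± 0.15. NEAT1, the scaffold of paraspeckles, had 652 and 1193 reads against 1037 and 1054, and was at -0.96 ± 0.22. The 2 higher members were PVT1, the neighbour of MYC, with 1210 and 1371 reads against 8698 and 9973 (1.71 ± 0.10), and KIAA0114 (1.81 ± 0.10). KIAA0114 also contains a small nucleolar RNA.

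Among annotated classes of all tested genes, 99 of 186 long noncoding RNAs (53.2%) and 93 of 179 transcribed pseudogenes (52.0%) were lower, compared with 4126 of 12830 protein-coding genes (32.2%). Only 6 of 461 microRNA entries could be tested, and 2 of these, MIR155HG and MIR17HG, are long host transcripts and not hairpins. MIR21 had 14 and 10 reads against 6 and 4 (-2.37 ± 0.46), and MIR614, at 0 and 3 reads against 15 and 16 (2.17 ± 0.75), lost its call in 4 alternatives (DESeq2, a filter at 1 read, the joint fit and the first total RNA library left out) and had too few reads to be tested in 4 others. Spliced noncoding hosts of small nucleolar RNAs were divided, with 2 of 12 higher (16.7%) and 3 lower (25%), beside 32.4% and 33.5% of all tested genes. SNHG1 rose from 698 and 854 reads to 2581 and 2954 (0.69 ± 0.11), and NCRNA00188 by 0.95 ± 0.10, although both hold small nucleolar RNAs within their span.

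Ribosomal protein mRNAs were enriched as a class by a small amount. Of 80 tested, 61 were higher, 2 were lower and 17 passed in neither direction, with a median of 0.49. The small subunit had 26 of 30 members higher (median 0.60) and the large subunit 35 of 50 (median 0.41). RPL4 had 7277 and 8017 reads in total RNA and 22993 and 25469 in PABP-bound RNA, a difference of 0.52 ± 0.09 (edgeR adjusted p = 0.000995). RPS6, the substrate of S6 kinase, rose by 0.50 ± 0.09, from 8464 and 9509 reads to 27721 and 28457. RPS26 was the member with the largest rise, at 43 and 59 reads against 392 and 482 (1.95 ± 0.17). The 2 lower members were RPL31 (-0.28 ± 0.10) and RPL39L (-0.90 ± 0.16), a paralog of RPL39 used in the testis. With library totals only, 46 were higher and 5 lower, and in the joint fit of 8 libraries 18 were higher and 1 lower. Ribosomal protein genes have many processed pseudogenes, so reads may be missing or shared for single members.

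The list of other TOP mRNAs leaned the same way, with 13 of 17 higher, 1 lower and a median of 0.53. It holds translation factors and other genes, such as VIM and HNRNPA1. GNB2L1, which encodes the ribosomal scaffold RACK1, had 18669 and 19811 reads in total RNA and 75015 and 83660 in PABP-bound RNA. Both PABP-bound values exceeded both total values in CPM, at 3164 and 3382 against 1720.4 and 1798 (0.90 ± 0.09, edgeR adjusted p = 4.33e-05). VIM, the intermediate filament vimentin, rose by 0.35 ± 0.10, a call that was lost with library totals only or with either PABP-bound library left out. HNRNPA1, a splicing repressor, was the lower one at -0.51 ± 0.14. Its annotated span overlaps that of the copy HNRPA1L-2 over 4131 bases, so its reads may be shared.

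The first transcribed bases of 5 of these genes are shown because the TOP tract is what defines the class. Each line holds the 10 bases before and the 20 bases from the annotated start (RefSeq, GRCh38.p14), and the capitals mark a C followed by at least 5 further C or T letters, beginning within 10 bases of that start on the transcribed strand. RPL4 (chr15:66504836-66504865, minus), RPS6 (chr9:19380217-19380246, minus) and GNB2L1 (now RACK1, chr5:181243887-181243916, minus) were higher and hold such a run. RPL31 (chr2:101002279-101002308, plus) was lower and holds one too. RPS26 (chr12:56041908-56041937, plus) had the largest rise and holds none by this rule. Nor does VIM, which was higher and is not printed.
RPL4: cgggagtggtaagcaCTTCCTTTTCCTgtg
RPS6: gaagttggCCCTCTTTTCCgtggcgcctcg
GNB2L1: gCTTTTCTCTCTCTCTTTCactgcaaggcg
RPL31: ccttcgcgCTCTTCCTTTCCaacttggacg
RPS26: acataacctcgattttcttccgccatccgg

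Of 64 ribosomal protein genes that could be matched to this table, 49 (76.6%) held the run, compared with 7288 of 35116 annotated starts (20.8%). Within the matched genes the run did not go with a larger change. The 49 genes with it had a median log2 fold change of 0.48, with 36 higher and 1 lower, and the 15 without it a median of 0.61, with 12 higher and none lower. Only 11 of 17 other TOP genes could be matched, so no share is given for them. The run stood at 14.5% of 69 matched mitochondrial ribosomal protein genes and 22.4% of 58 matched oxidative phosphorylation genes. A match describes these letters only, and is not shown to be a working TOP tract.

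Nuclear-encoded genes of the mitochondrion rose with the ribosomal proteins. Of 69 tested subunits of oxidative phosphorylation, 51 were higher and 1 was lower, with a median of 0.50. All 9 tested subunits of complex IV were higher (0.40 to 0.87), as were 21 of 33 in complex I, 2 of 4 in complex II, 9 of 10 in complex III or cytochrome c and 10 of 13 in ATP synthase. ATP5B, the catalytic subunit of ATP synthase, had 5556 and 7646 reads against 24419 and 27484, at 0.83 ± 0.14. ATP5D rose by 1.49 ± 0.11, the largest change in the list. Of 74 mitochondrial ribosomal protein genes, 43 were higher and 7 lower with a median of 0.32. MRPS15 rose from 1091 and 1329 reads to 6126 and 6743 (1.26 ± 0.11), while MRPS25 was at -1.03 ± 0.11 and partly overlaps NR2C2. In the joint fit of 8 libraries 10 members of each of these lists were higher.

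**Figure D3:**
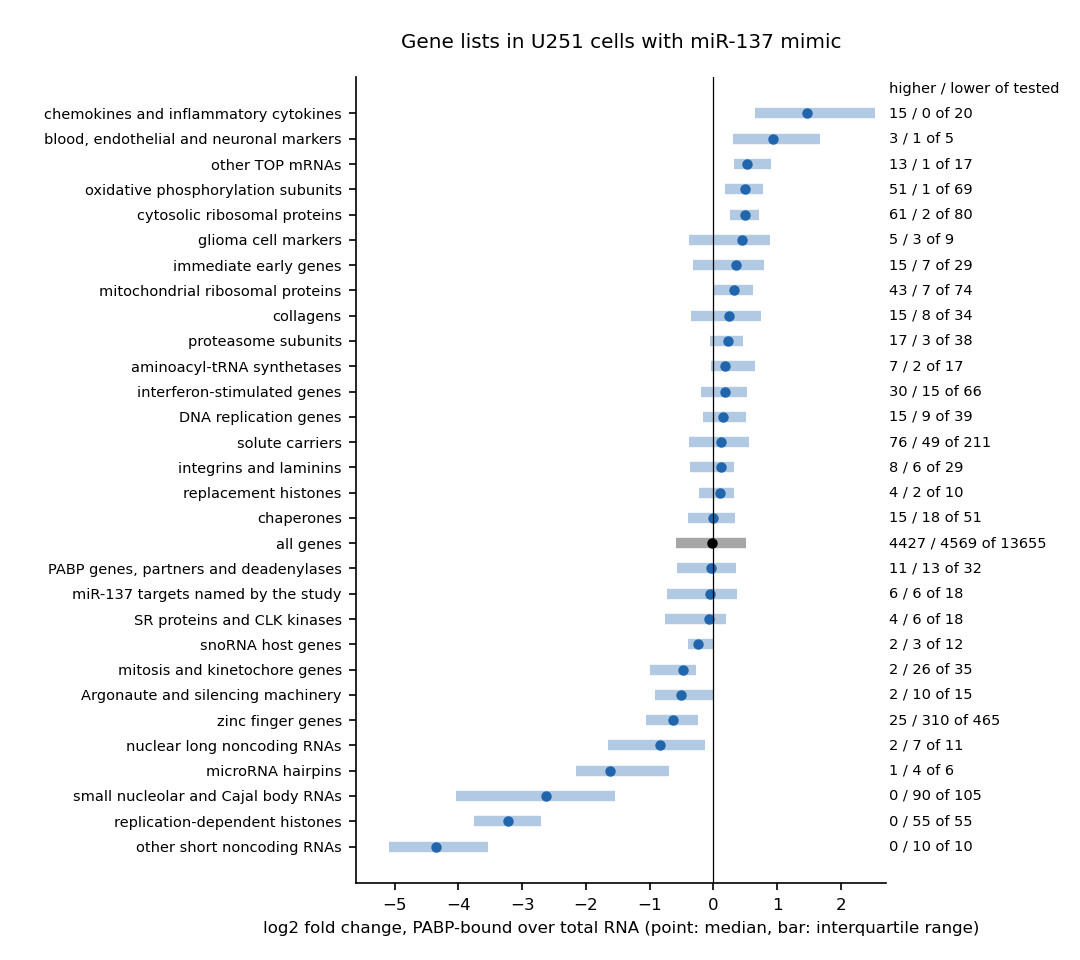
Median log2 fold change (point) and interquartile range (bar) of each gene list with at least 5 tested members, with the members higher and lower at an adjusted p under 0.05 printed at the right. All genes together (black) center at -0.02, short noncoding RNAs and replication-dependent histones lie at -4.36 and -3.22, and chemokines and inflammatory cytokines at 1.46.

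The largest rises fell on genes with very few reads in total RNA. The ranking asked for reads only in the fraction where a gene was higher, so it favours such genes by construction. Among genes with at least 50 reads on average in PABP-bound RNA, the 15 largest rises ran from 3.24 to 4.86 on the log2 scale. ARHGDIB, a GTPase regulator of blood cells, had 15 and 19 reads in total RNA and 1050 and 1142 in PABP-bound RNA. The ratio of CPM was 29.1, with a counting interval of 20.8 to 42.1, and the difference was 4.86 ± 0.15 (edgeR adjusted p = 9.29e-07). EDN2, the vasoconstrictor endothelin 2, had 5 and 0 reads against 154 and 144, a ratio of 26.9 (interval 11.4 to 83.5). NPPB, which encodes a natriuretic peptide, had 5 and 4 against 160 and 203, a ratio of 18.2 (interval 9.49 to 40.1). For each of these genes both PABP-bound libraries lay far above both total RNA libraries, but the size of the ratio rests on few reads in total RNA. EDN2 and NPPB passed the read filter only through the PABP-bound libraries. With control mimic, ARHGDIB had 56 and 53 reads in total RNA and 460 and 683 in PABP-bound RNA, EDN2 46 and 69 against 108 and 102, and NPPB 42 and 38 against 51 and 26.

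The inflammatory cytokine IL1B had 8 and 7 reads against 288 and 310 (4.16 ± 0.22). TIMP3, a matrix metalloproteinase inhibitor, had 39 and 27 against 904 and 1069 (3.75 ± 0.17) and lies within the span of SYN3. IGFBP4, a binding protein of insulin-like growth factors, had 21 and 30 against 506 and 569, and VGF, a neuropeptide precursor, 10 and 13 against 262 and 266. CLEC7A, a receptor for fungal glucans on myeloid cells, had 3 and 8 against 277 and 230. The fatty acid carrier FABP4 and the membrane proteins TSPAN15 and REEP6 stood at 3.67, 3.24 and 3.80. CLEC7A and REEP6 too passed the read filter only through the PABP-bound libraries. CLEC7A, ARHGDIB and IL1B are known as genes of blood cells. Among blood markers, PTPRC, the pan-leukocyte gene, had 8 and 2 reads in total RNA and 7 and 4 in PABP-bound RNA, HBB had at most 1, and CD68, a myeloid gene, had 963 and 893 against 2332 and 2761. Of 12 listed blood, endothelial and neuronal markers 5 could be tested, of which CD68, SNAP25 and SYP were higher and SYT1 was lower. The summed level of the 12 ran from 111 to 127 CPM in total RNA and from 132 to 145 CPM in PABP-bound RNA, and its part in the result was not tested.

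The interferon ligands IFNB1 and IL29 were among the 15 largest rises, and both passed the read filter only through the PABP-bound libraries. Type I and type III interferons are secreted after viral RNA or DNA is sensed, and act through separate receptors on the same transcription factors. IFNB1, the gene of interferon beta (hg18 chr9:21067104-21067943), had 5 and 7 reads in total RNA and 299 and 276 in PABP-bound RNA. The groups did not overlap in CPM, at 0.461 and 0.635 against 12.6 and 11.2. The ratio was 21.6 with a counting interval of 12.3 to 42.1, and the fitted difference was 4.42 ± 0.25 (edgeR adjusted p = 3.61e-06). In control mimic cells IFNB1 had 1 and 1 reads in total RNA and 1 and 3 in PABP-bound RNA. In bulk libraries, a few cells with much IFNB1 mRNA and many cells with little cannot be told apart.

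IL29, the gene of interferon lambda 1 (hg18 chr19:44478805-44481152), had 2 and 6 reads in total RNA and 193 and 242 in PABP-bound RNA, a ratio of 24.5 with an interval of 12.3 to 57.2 (4.59 ± 0.34, edgeR adjusted p = 1.01e-05). It too was nearly unread in control mimic cells, with no read in total RNA and 4 and 1 in PABP-bound RNA. Its neighbours IL28A and IL28B, which are near-identical to each other, had no reads in total RNA and at most 3 in a PABP-bound library, too few to test. Of the 19 interferon genes listed only 3 could be tested, and the third, IFNE, was at -0.27 and did not pass.

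Chemokines and inflammatory cytokines, whose mRNAs are mostly short-lived and AU-rich, were the most enriched larger list. Of 20 tested, 15 were higher and none was lower, 14 of them by more than 2-fold, with a median of 1.46. CXCL10, a T cell attractant induced by interferon, had 94 and 144 reads in total RNA and 1567 and 1659 in PABP-bound RNA (2.61 ± 0.15), and lies within the span of ART3. CCL5, another T cell attractant, had 79 and 80 against 877 and 1099 (2.48 ± 0.14). Neither chemokine had more than 6 reads in any U251 control library. CCL20 was at 3.05 ± 0.19, the monocyte attractant CCL2 at 2.51 ± 0.10 and the acute-phase cytokine IL6 at 2.50 ± 0.14. IL8, the neutrophil attractant and the most counted member, rose from 967 and 1141 CPM to 2799 and 2832 (1.42 ± 0.10). IL11, with 3649 and 3988 reads against 8662 and 9288, was at 0.09 ± 0.09 and did not pass (edgeR adjusted p = 0.404). CXCL11, at 0.35 ± 0.22, did not pass either, and CXCL2 and CXCL3 were at 0.02 and 0.15. With any 1 of the 4 libraries left out, 13 to 16 members were higher and none was lower.

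Interferon-stimulated genes moved in both directions, with more of them higher than among all genes. Of 66 tested, 30 were higher (45.5%), 15 were lower (22.7%) and 21 passed in neither direction, with a median of 0.18 beside -0.02 for all genes. Among all tested genes in the highest of 4 bins by mean normalised CPM, 48.4% were higher and 29.2% lower. The list was not compared with genes of like level. Changes of more than 2-fold were called for 3 higher and 3 lower members of the list. With library totals only, 20 were higher and 23 lower, with a median of -0.02 beside -0.22 for all genes. As a group they took 34551 and 36133 CPM of total RNA and 40642 and 42759 CPM of PABP-bound RNA.

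The strongly counted effectors moved in both directions by modest amounts. IFIT1, which binds viral RNA lacking cap methylation, had 15960 and 18043 reads in total RNA and 52991 and 56016 in PABP-bound RNA, beside 154 and 180, and 60 and 114, in the same fractions of control mimic cells. It rose by 0.53 ± 0.09 (edgeR adjusted p = 0.000957). RSAD2, the antiviral enzyme viperin, had 3 reads in each total RNA library with control mimic and 8309 and 8114 with miR-137, and rose in the PABP-bound fraction to 26552 and 27259 (0.56 ± 0.08). CMPK2, its genomic neighbour, rose by 0.82 ± 0.08. IFI6, a membrane protein, rose further, from 2014 and 2726 CPM to 5352 and 6317 (1.30 ± 0.15).

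Other effectors were lower in the PABP-bound fraction. MX1, a dynamin-like antiviral GTPase, had 10412 and 10742 reads against 15349 and 16360, that is 959.5 and 975 CPM against 647 and 661 (-0.56 ± 0.08, edgeR adjusted p = 0.000373). Its paralog MX2 went the other way, from 516 and 523 CPM to 660.2 and 664 (0.35 ± 0.08), a call lost with library totals only and with either PABP-bound library left out. ISG15, a ubiquitin-like modifier, was lower at -0.48 ± 0.09, with 3575 and 3309 CPM against 2475 and 2448. SLFN5 showed the largest fall, -1.51 ± 0.13. OAS2, an oligoadenylate synthetase, was at -0.24 ± 0.09, a call lost with DESeq2 and with either PABP-bound library left out, and OAS1 at 0.22 ± 0.09 did not pass (edgeR adjusted p = 0.0529). At the other end IFITM2, which blocks viral entry, had 70 and 121 reads against 1315 and 1596 (2.78 ± 0.19). IFITM2 shares long stretches with IFITM1 and IFITM3, so reads may be divided among them.

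Sensors and transcription factors of the pathway, apart from IRF7, were close to the center of all genes. The RNA sensors DDX58 (RIG-I) and IFIH1 (MDA5) were at -0.16 ± 0.09 and 0.12 ± 0.09 and did not pass. IRF9, the DNA-binding part of the interferon-activated complex, was at 0.31 ± 0.09, a call that was lost with library totals only or with either PABP-bound library left out. IRF1 was at 0.12 ± 0.08 and did not pass. IRF7, the factor that amplifies interferon production, was lower, with 20 and 26 reads against 24 and 13 (-1.45 ± 0.36, edgeR adjusted p = 0.00700), and lost its call without the second PABP-bound library. IFIT3, XAF1, IFI44L and ISG20 lay between -0.09 and 0.04 and did not pass.

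**Figure D4:**
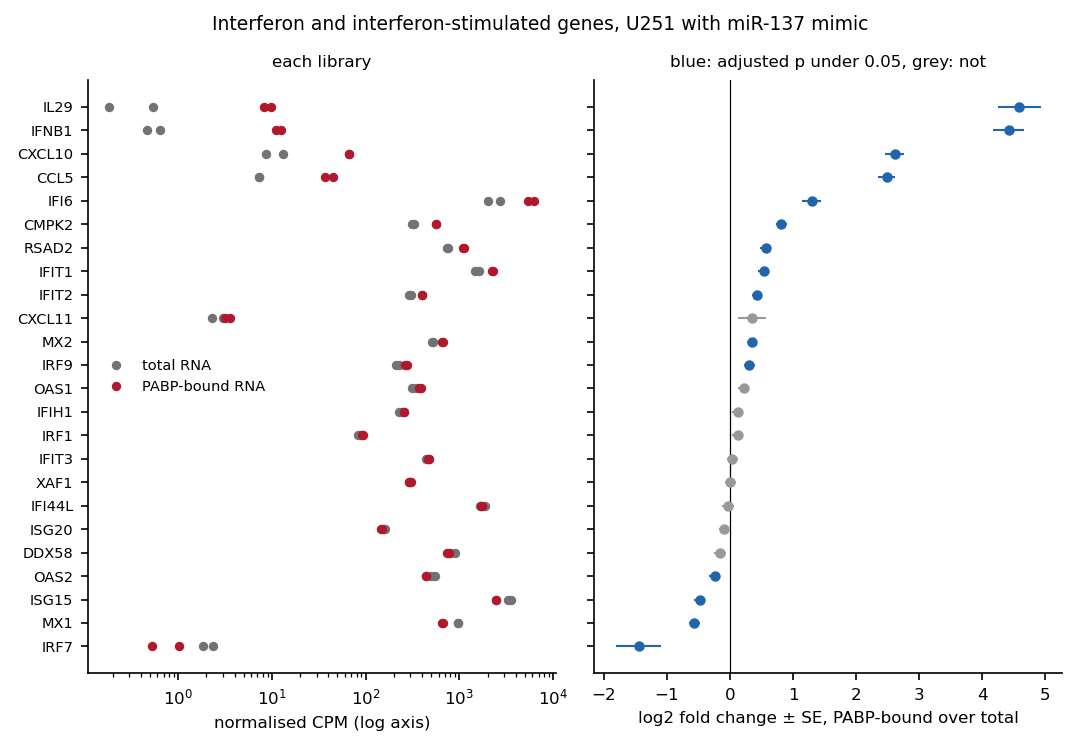
Normalised CPM (left, log axis) in each library and log2 fold change ± SE (right) of 24 interferon and interferon-stimulated genes. The ligands IL29 and IFNB1 and the chemokines CXCL10 and CCL5 stand at 2.48 or more, while the effectors, sensors and transcription factors lie between -1.45 and 1.30.

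The mRNAs of PABPC1, PABPC4 and PABPN1 were enriched and that of PABPC4L was depleted. PABPC1, the main cytoplasmic PABP, whose mRNA carries an A-rich stretch that PABP binds, had 2768 and 2576 reads in total RNA and 20425 and 21642 in PABP-bound RNA. In CPM the 4 values were 255 and 234 against 861 and 875, with no overlap (1.83 ± 0.09, edgeR adjusted p = 2.41e-06). PABPC4, an inducible cytoplasmic PABP, rose from 66.3 and 70.2 CPM to 272 and 269 (1.99 ± 0.09). PABPN1, the nuclear PABP, rose by 1.06 ± 0.09. PABPC4L, a paralog counted at only 77 and 78 reads in total RNA, was lower with 47 and 49 (-1.83 ± 0.18). Of the 32 tested genes for PABPs, their partners and deadenylases, 11 were higher (34.4%) and 13 lower (40.6%), beside 32.4% and 33.5% of all tested genes. Their median was near that of all genes. The deadenylase subunit CNOT7 rose by 0.80 ± 0.09, and EIF4G1, the scaffold that PABP contacts, was lower at -0.66 ± 0.10.

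Genes of the microRNA silencing machinery leaned lower, with 10 of 15 lower, 2 higher and a median of -0.51. DICER1, which cuts microRNA precursors, had 2892 and 2156 reads against 2137 and 2102 (-1.40 ± 0.14). The GW182 genes TNRC6A and TNRC6B were at -0.51 ± 0.10 and -1.11 ± 0.09, and the Argonaute gene EIF2C4 at -1.53 ± 0.13. EIF2C2, which encodes Argonaute 2, was at 0.14 ± 0.09 and did not pass. PRKRA, a DICER1 partner, rose by 0.69 ± 0.10.

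Zinc finger genes formed the largest depleted group of coding genes. Of 465 tested members, transcription factors most of which have C2H2 fingers, 310 were lower (66.7%) and 25 higher (5.38%), with a median of -0.63. ZNF644 had 4240 and 3662 reads in total RNA and 4982 and 5076 in PABP-bound RNA, a change of -0.80 ± 0.10 (edgeR adjusted p = 0.000147). ZNF483 had the largest fall, with 140 and 102 reads against 40 and 43 (-2.69 ± 0.21). ZNF483 overlaps PTGR1, so their reads cannot be told apart. ZNF207, a spindle assembly factor, went the other way at 0.42 ± 0.08.

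Genes of mitosis were mostly lower too, with 26 of 35 lower, 2 higher and a median of -0.48. ASPM, a spindle pole protein, had 6128 and 4966 reads in total RNA and 2589 and 2599 in PABP-bound RNA (-2.24 ± 0.12, edgeR adjusted p = 2.94e-06). CENPF and TOP2A, a kinetochore protein and topoisomerase II alpha, were at -2.00 ± 0.11 and -1.36 ± 0.10. MKI67, the proliferation marker, was at -1.30 ± 0.17, though its total RNA replicates differed, at 18871 and 12671 reads. BIRC5, which encodes survivin, was higher at 0.31 ± 0.08, a call lost with library totals only, and overlaps the antisense gene EPR1, so their reads cannot be told apart. DNA replication genes were split, with 15 of 39 higher (38.5%) and 9 lower (23.1%), beside 32.4% and 33.5% of all tested genes. TK1, thymidine kinase, rose by 1.35 ± 0.11, and POLA2, a DNA polymerase alpha subunit, was at -0.83 ± 0.09.

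The share of genes lower in PABP-bound RNA grew with genomic span. Protein-coding genes were divided into 4 equal bins by the length they cover on hg18, from first to last base and introns included. In the bin of shortest genes, up to 11497 bases, 44.8% of 3209 genes were higher and 19.8% were lower, with a median of 0.26. In the longest, from 74416 bases, 20.2% of 3208 were higher and 49.3% lower, with a median of -0.33. The 2 middle bins lay between, at medians of 0.16 and -0.07. Genes were also called higher more often at higher levels. In 4 bins by mean normalised CPM the share ran from 17.2% in the lowest to 48.4% in the highest. The mean took in the PABP-bound libraries, so a rise there itself moves a gene toward a higher bin. The part that depth plays in this was not tested. Span and mRNA length are not the same, and mRNA length was not analysed here.

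**Figure D5:**
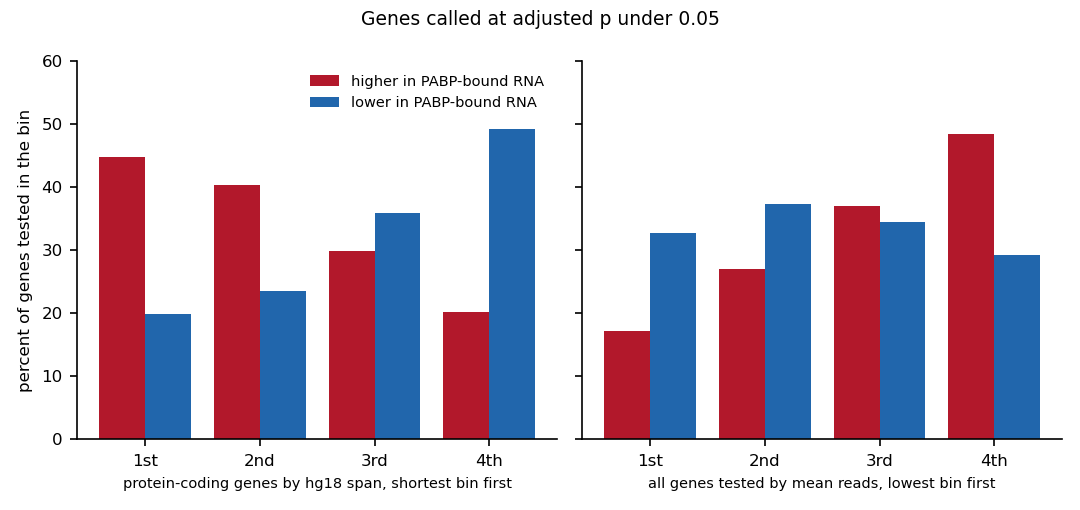
Percent of genes called higher (red) and lower (blue) in PABP-bound RNA, for protein-coding genes in 4 bins of genomic span (left) and all tested genes in 4 bins of level (right). Level is the mean normalised CPM over the 4 libraries, which the axis calls mean reads. With span, the share of genes higher drops from 44.8% to 20.2% and the share lower climbs from 19.8% to 49.3%.

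Housekeeping, matrix and metabolic genes moved both ways. ACTB and GAPDH, often used as references, were higher in PABP-bound RNA by 1.73 ± 0.09 and 1.30 ± 0.10, from 3238 and 3334 CPM to 10801 and 10998 for ACTB. Of 29 immediate early genes 15 were higher (51.7%) and 7 lower (24.1%), beside 32.4% and 33.5% of all tested genes. CTGF, a matrix growth factor, rose from 7056 and 7420 reads to 77590 and 78080 (2.28 ± 0.09), while DUSP1, a MAP kinase phosphatase, was at -0.97 ± 0.08. Aminoacyl-tRNA synthetases had 7 of 17 members higher (41.2%) and 2 lower (11.8%). The rises were led by WARS and GARS at 1.45 ± 0.09 and 1.44 ± 0.09. WARS is also induced by interferon. Of 38 proteasome genes 17 were higher (44.7%) and 3 lower (7.89%), with PSMA6 at 0.81 ± 0.11 and PSMC6 at -0.64 ± 0.12.

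Membrane transporters, collagens and adhesion receptors showed no common direction. Among 211 solute carriers, 76 were higher (36.0%) and 49 lower (23.2%). SLC7A5, a large neutral amino acid transporter, had 1399 and 1669 reads against 15662 and 16659 (2.25 ± 0.10), and SLC2A1, the glucose transporter GLUT1, rose by 1.07 ± 0.09. SLC16A1, a lactate transporter, was at 0.09 ± 0.09 and did not pass. Collagen genes had 15 of 34 members higher (44.1%) and 8 lower (23.5%). COL5A2 rose by 1.64 ± 0.12, whereas COL10A1, at 74 and 50 reads against 12 and 14, was at -3.38 ± 0.30, and it lies within NT5DC1. Of 29 integrin and laminin genes 8 were higher (27.6%) and 6 lower (20.7%), with ITGA3 at 1.13 ± 0.10 and ITGA2 at -0.99 ± 0.14. Chaperone genes had 15 of 51 higher (29.4%) and 18 lower (35.3%), near the 32.4% and 33.5% of all tested genes. Splicing regulators had 4 of 18 higher (22.2%) and 6 lower (33.3%). Among these regulators, SFRS18 fell by 1.33 and TRA2A rose by 0.80 on the log2 scale. Of 9 tested glioma markers 5 were higher, including CAV1 at 1.73 ± 0.09, and 3 were lower, including TNC at -0.99 ± 0.16.

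A list of 18 genes was taken from among the miR-137 targets that the study names. Of these, 6 were higher (33.3%), 6 lower (33.3%) and 6 did not pass. Those shares lie near the 32.4% and 33.5% of all tested genes, and the median was -0.06 beside -0.02. The list was chosen in part on libraries of this series, so its count is no independent evidence of direction. KDM5B, a histone demethylase, had 1085 and 943 reads in total RNA and 870 and 867 in PABP-bound RNA (-1.37 ± 0.10, edgeR adjusted p = 1.02e-05). CDK6, a cyclin-dependent kinase of cell cycle entry, was at -1.22 ± 0.11, and MIB1, a ubiquitin ligase of Notch signalling, at -1.28 ± 0.13. EZH2, CSE1L and KDM1A were at -0.94, -0.74 and -0.66. In the other direction NEFL, a neurofilament gene, had 2666 and 2962 reads against 14420 and 15313 (1.25 ± 0.09), and TGFB2, a secreted growth factor, rose by 0.92 ± 0.09. KIT, a receptor kinase, had only 7 and 5 reads in total RNA against 45 and 34 (1.56 ± 0.39), a call lost without the first PABP-bound library. With control mimic the ratio was -1.04 for KDM5B, -1.20 for CDK6 and -1.89 for MIB1. EZH2, CSE1L and KDM1A were at -0.85, -1.32 and -0.72 with that mimic, and NEFL, TGFB2 and KIT at -0.14, -0.58 and -1.23. No gene of the list passed the interaction of assay and mimic given below, which does not show that ratios were alike. The study compared miR-137 with control mimic within each assay, so this ratio is not its measure of targeting.

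Whether the enrichment differed from that in cells with control mimic was tested by the interaction of assay and transfection over the 8 U251 libraries. Of 14210 genes, 15 had a higher ratio with miR-137 (0.106%) and 4 a lower one (0.0281%), while 2688 had an unadjusted p under 0.05. HIST1H2BK was at -1.04 with miR-137 and -4.69 with control mimic, a difference of 3.65 ± 0.29 (edgeR adjusted p = 0.0179). It was 1 of 5 histone genes among the 15, with HIST1H2AC, HIST1H1B, HIST1H2BI and HIST1H1C, and over the 56 histone genes tested the median difference was 1.93. ANKRD1, a stress-responsive muscle repeat protein, was at 2.64 with miR-137 and -0.24 with control mimic, and FST, an activin antagonist, at 0.22 and 3.28. No member of the interferon, interferon-stimulated, chemokine, ribosomal protein or zinc finger lists passed, which does not show that their ratios were alike. Over genes tested in every context, the ribosomal protein median was 0.50 with miR-137 and -0.02 with control mimic. Other TOP mRNAs were at 0.53 and -0.02, and interferon-stimulated genes at 0.215 and -0.187. Chemokines and cytokines were at 1.31 and 2.06, and zinc finger genes at -0.62 and -0.85. Calls of this interaction changed most with the PABP-bound control pair, whose replicates differed most. With either of that pair left out in turn, 1664 and 4947 genes were higher and 1224 and 3922 lower, while leaving out any other library, or blocking by replicate number, gave 0 calls in edgeR with 1303 to 2655 genes at an unadjusted p under 0.05. DESeq2 on all 8 libraries called 314 higher and 403 lower.

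The same ratio was compared with that in U343 cells carrying miR-137. Cell line and library kit cannot be told apart here, since the study's methods describe another cDNA kit for U343. The 2 U343 total RNA libraries with miR-137 stood apart from each other for interferon-stimulated genes, with 410 and 76721 reads of IFIT1 and 182 and 64346 of RSAD2. Of 15894 genes, 2165 had a higher ratio in U251 (13.6%) and 2287 a lower one (14.4%). Without the first of those libraries the counts were 2649 and 3070, and without the second 3259 and 3641. Ribosomal protein genes were higher in U251 for 56 of 84 (median difference 0.76), and oxidative phosphorylation genes for 42 of 71. Zinc finger genes were lower in U251 for 209 of 494, with a median difference of -0.67. Replication-dependent histones and small nucleolar RNAs were low in both lines, with medians of -3.13 and -2.94 in U251 and -3.91 and -3.13 in U343 over genes tested in every context. Other lists differed between U251 and U343 by the same measure. Ribosomal proteins were at 0.50 and -0.26, oxidative phosphorylation at 0.495 and -0.202, zinc finger genes at -0.62 and 0.02, and chemokines and cytokines at 1.31 and 0.09. For the 66 interferon-stimulated genes the result depended on that pair. With both libraries 1 was higher and 1 lower in U251, without the first 15 were higher and 18 lower at a median difference of -0.17, and without the second 1 was higher and 64 lower at -3.97. No direction is therefore given for them. Among single genes, ANKRD1 was at 2.64 in U251 and -3.26 in U343, a difference of 5.90 ± 0.20 (edgeR adjusted p = 2.65e-05).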

How the data were processed

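RNA of U251 and U343 cells was sequenced by the authors after rRNA depletion, and the 4 U251 miR-137 libraries were analysed here. The authors aligned reads to hg18 with RMAP and deposited counts per gene, on a RefSeq reference in which the isoforms of a gene were merged. The counts were used as deposited, with 20314 genes after 1 symbol listed 2 times (SLC35E2) was kept once.

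Genes passing filterByExpr were scaled by TMM factors and tested with edgeR's quasi-likelihood test (edgeR 4.0.16, R 4.3.3), with Benjamini-Hochberg adjustment over all genes tested. Log2 fold changes are PABP-bound minus total RNA. SE is an approximate standard error, the absolute log2 fold change over the square root of the F statistic of its test. CPM are counts per 1000000 reads of TMM-scaled depth. Interactions were fitted over 8 libraries. Ratios of counts carry exact Clopper-Pearson 95% intervals. A second rule also required a change of over 2-fold. The code was checked on simulated data in which few genes changed, unlike the data here, so that check does not cover the scaling.

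The members and the gene lists were chosen with earlier results of these data known. Genes were named by a rule: the 15 largest called rises and falls with non-overlapping groups and a mean of 50 or more reads where higher, in each list the 2 members with most reads and the called members with the largest rise and fall, fixed sets of interferon, PABP, reference and miR-137 target genes, and the 5 genes with the smallest p in each interaction. The markers of other cells included PTPRC, CD3E, HBB, ALB, CD68, PECAM1, CDH5, MBP, SYP, SYT1 and SNAP25. Some single genes are not reported here. Other members of the lists named here, host genes of small RNAs, CXCR7 and ZCCHC12 were chosen after their values were seen. Alternatives were other scalings and filters, thinning, DESeq2 1.42.0, a joint fit, a replicate block and leaving out each library. Sequences are from RefSeq.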

Additional observations from a re-analysis of the deposited data

Results flagged for a closer look

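The ratio of PABP-bound to total RNA differed between miR-137 and control mimic for 15 genes upward and 4 downward, tested by edgeR as an interaction between assay and mimic. The 5 with the smallest p were HIST1H2BK, a histone H2B gene at a difference of 3.65, SFRP4, a secreted Wnt antagonist at 3.56, FST at -3.06, TNFRSF11B, the decoy receptor osteoprotegerin at -3.81, and ANKRD1 at 2.88 on the log2 scale. Between the lines, with miR-137 in both, 2165 ratios were higher in U251 and 2287 were lower by the interaction of assay and cell line. The differences were 5.90 for ANKRD1, 3.46 for CCDC58, 4.82 for GPM6A, a neuronal membrane glycoprotein gene, -3.78 for HSPG2, which encodes perlecan, and -2.92 for TAF15, an RNA-binding protein gene.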

How the results depend on the processing

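Every call shared with the reported fit kept its direction in each alternative, and of 145 called genes named by the rule, 24 lost their call in at least 1 alternative other than the joint fit of 8 libraries, which ended 49. The joint fit left 1739 genes higher and 1791 lower. With each library left out, 3336 to 4984 genes were higher and 3384 to 4885 lower, and 1255 to 1556 and 1600 to 2054 by more than 2-fold. Under 10 reads in one of the fractions, as for EDN2, NPPB and SNORA22, left wide counting intervals.

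Same-numbered libraries deviated together with r = 0.154 over genes, and 2 pairs cannot show that the numbers pair them. With a replicate block, 4596 genes were higher and 4725 lower. For the interaction with transfection the replicate block gave 0 calls in either direction, as against 15 and 4. DESeq2 gave 314 and 403, upper-quartile scaling 6 and 3, and single libraries left out 0 to 4947 and 0 to 3922. For the interaction with cell line, libraries left out gave 909 to 3259 and 759 to 3641.

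Medians of 8 lists changed sign in at least 1 alternative. With library totals only they were -0.098 for replacement histones, -0.016 for interferon-stimulated genes, -0.088 for solute carriers, -0.090 for integrins and laminins, -0.013 for aminoacyl-tRNA synthetases and -0.052 for DNA replication genes. Replacement histones were also at -0.017 with at least 50 reads, and collagens ran from -0.033 to 0.40, and integrins and laminins from -0.014 to 0.19, with single libraries left out. Chaperones, at -0.0015, were at 0.0094 with DESeq2, 0.034 with at least 1 read and 0.026 without the first PABP-bound library. The named genes that changed sign had not passed the test. With library totals only these were IFIH1 at -0.076, IFIT3 at -0.16, IL11 at -0.12, IRF1 at -0.077, MCM7 at -0.061, MTDH at -0.031, SLC16A1 at -0.11 and XAF1 at -0.19. With upper-quartile scaling IFIT3 was at -0.022 and XAF1 at -0.055, and with at least 50 reads at -0.0095 and -0.042. MSI1 was at 0.0092 with DESeq2, 0.027 with at least 1 read and 0.021 after thinning, where XAF1 was at -0.019. With single libraries left out, AKT2 ran from -0.18 to 0.034, IFI44L from -0.14 to 0.058, IFIT3 from -0.028 to 0.096, LAMC1 from -0.013 to 0.59, MSI1 from -0.38 to 0.48, PTGS2 from -0.12 to 0.012, SFRS1 from -0.084 to 0.014 and XAF1 from -0.014 to 0.036. The cause of these shifts was not tested.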
